A study of Mus musculus with 16 samples.

Results

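The RNAs of splicing factors and heterogeneous nuclear ribonucleoproteins (hnRNPs) were compared between the protrusions and the cell bodies of mouse fibroblasts. Members were the rows of the deposited expression table whose gene symbol begins with Hnrnp, Srsf and a digit, Snrp, Sf3a, Sf3b, U2af or Prpf, with pseudogene symbols left out. This rule uses no measured value and gave 66 of the 12900 RNAs in the table. By role, these were 7 proteins of the Sm ring, 2 proteins specific to the U1 particle, 11 of the U2 particle with SF3A and SF3B, 3 of U2AF, 5 of the U4/U6.U5 tri-snRNP, 8 other Prpf factors, 10 SR proteins and 20 hnRNPs.

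Splicing is carried out by small nuclear ribonucleoprotein particles (snRNPs), each a small nuclear RNA on a ring of Sm or LSm proteins with proteins of its own. SR proteins bind exons and recruit these particles, and hnRNPs coat the transcript and often oppose them. The proteins act mostly in the nucleus, whereas their mRNAs are translated in the cytoplasm, so the place of the mRNA and the place of the protein's work are separate questions.

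NIH/3T3 cells, an established mouse fibroblast line, carried a stably expressed, doxycycline-inducible human β-globin coding sequence followed by the HBB (β-globin) 3′UTR in the HBB control line or by the Pkp4 3′UTR in the Pkp4 cUTR line. Both lines came from lentiviral transduction and drug selection and are not described as clones. All cells of both lines received doxycycline at 1 µg/ml for 3 days, were starved of serum, sat for 2 h on filters with 3.0-µm pores, and met lysophosphatidic acid (LPA) for 1 h, so no group lacks the construct, the drug or the stimulus. After light fixation, the protrusions (Ps) grown through the pores and the cell bodies (CB) left above were collected from separate filters. On each filter the other fraction was removed by hand first. There were 4 replicates of each fraction of each line, 16 libraries in all.

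Between 18660287 and 31260831 reads lay on the tested RNAs per library, and 3 reads corresponded to between 0.089 and 0.176 CPM (read counts scaled to a common library total). Replicate 4 of both CB groups stood apart from the other CB libraries on the first principal component (23.4 against 39.8 to 47.5 in HBB, 0.972 against 27.7 to 42.2 in Pkp4 cUTR), so counts are also given without these libraries. Pkp4 RNA, which the construct of the Pkp4 cUTR line adds to, was 4.44 higher on the log2 scale in Pkp4 cUTR CB than in HBB CB (limma adjusted p = 7.41e-11), the direction the labels give. Of 10 fibroblast markers 8 were in the table, without Postn and Thy1, and they summed to between 19270 and 22560 CPM in Ps and between 25950 and 31540 CPM in CB, with 6 of the 8 lower in Ps in each line. Sums reached at most 20.4 CPM for 2 of 5 epithelial markers, 9.57 CPM for 3 of 5 blood markers and 1.91 CPM for 2 of 4 endothelial markers, and the defining markers Epcam, Krt18, Cldn3, Ptprc, Kdr and Tek were not in the table. Of 5 nuclear long non-coding RNAs, the 3 in the table (Malat1, Neat1 and Kcnq1ot1) summed to between 160 and 315 CPM in Ps and between 476 and 723 CPM in CB. Malat1 and Neat1 were lower in Ps in both lines, so these markers moved with the fraction in each comparison of Ps with CB, and their part in the results was not tested.

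The first question was which of these RNAs were enriched in Ps. Members were more often higher than lower in Ps. The HBB line had 34 of 66 members higher (51.5%) and 13 lower (19.7%) at a limma adjusted p under 0.05, beside 28.3% higher and 28.9% lower among all RNAs tested. The Pkp4 cUTR line had 30 higher (45.5%) and 13 lower (19.7%), beside 28.2% and 28.5% of all RNAs. The higher share therefore lay above the background in both lines and the lower share below it. The log2 fold change of Ps over CB (log2 FC) had a median over members of 0.21 in HBB and 0.13 in Pkp4 cUTR, against 0.01 over all RNAs in each line.

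The lines share no samples, but their same-numbered libraries deviated together (r 0.331 to 0.628 in CB and 0.196 to 0.392 in Ps). Both log2 FC also came from 1 fit, so the lines may not be independent. In both lines, 29 members (43.9%) were higher in Ps, beside 24.1% of all RNAs. The 13 members that were lower in HBB were the same 13 that were lower in Pkp4 cUTR (19.7% beside 25.3% of all RNAs). No member was called higher in one line and lower in the other. In 19 members (28.8%, beside 18.1% of all RNAs) every Ps library lay above every CB library of its line in both lines, and in 9 members (13.6%, beside 19% of all RNAs) every Ps library lay below. Without replicate 4 of both CB groups, the counts were 30 higher and 13 lower in HBB and 31 higher and 15 lower in Pkp4 cUTR.

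Most of these differences were small. The rule of a 2-fold change with unadjusted p under 0.05 was met by 4 members higher in HBB Ps (Snrpg, Snrpe, Snrpb2 and Hnrnpu, beside 4.54% of all RNAs) and by Srsf1 alone lower (beside 4% of all RNAs). In Pkp4 cUTR it was met by 4 members higher in Ps, Hnrnpu, Snrpe and Snrpg among them (beside 5.07%), and again by Srsf1 (beside 2.92%). The other members that passed the adjusted threshold changed by less.

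**Figure D1:**
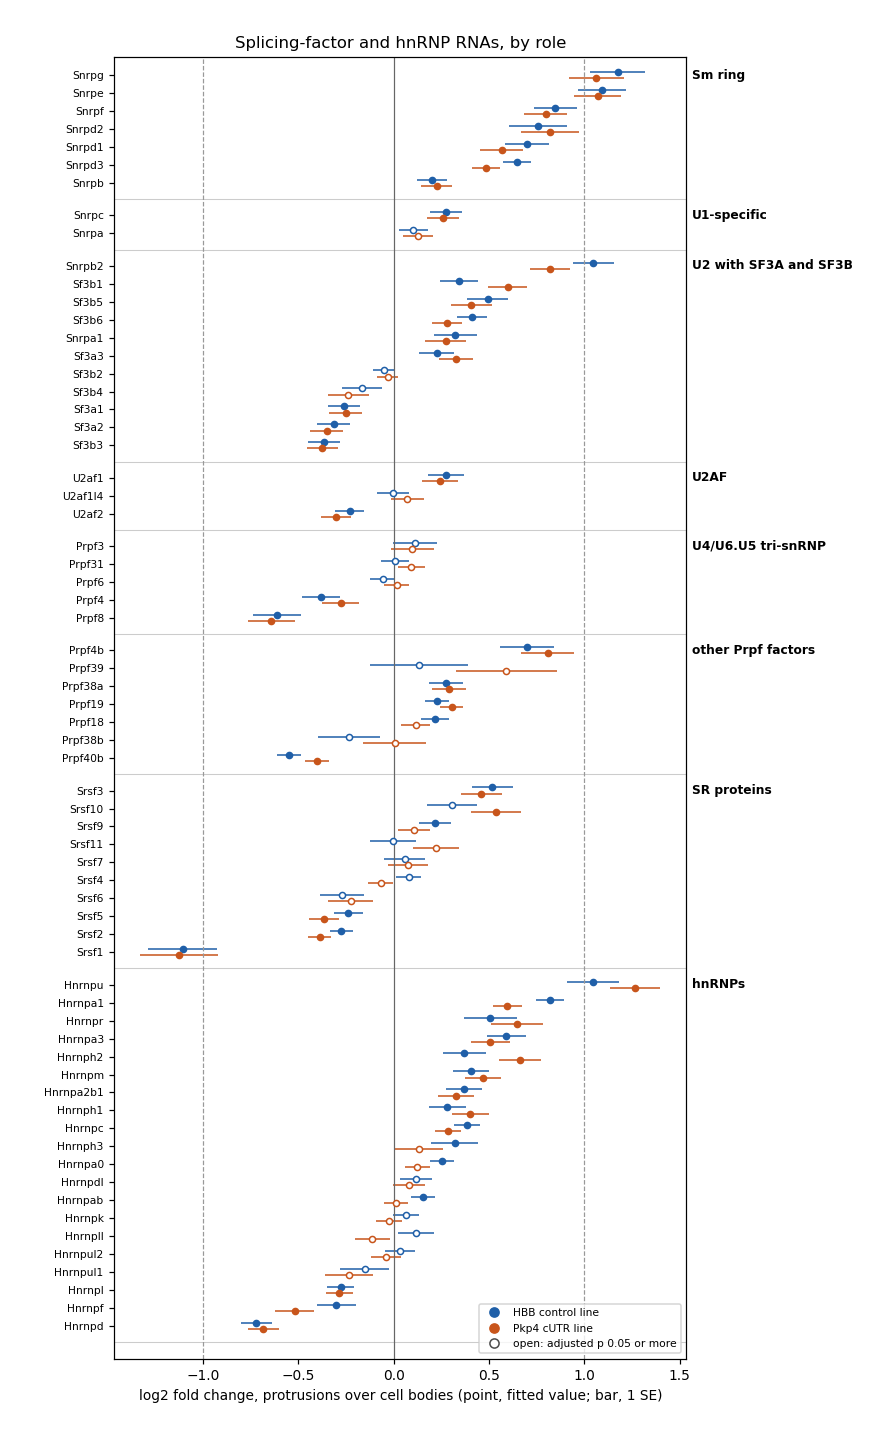
Each row is 1 RNA (65 of the 66 are drawn), grouped by role, and the horizontal axis is the log2 fold change of protrusions over cell bodies (point, fitted value; bar, 1 SE) in the HBB control line (blue) and the Pkp4 cUTR line (orange), with filled points for adjusted p under 0.05 and dashed lines at 2-fold. The 7 Sm ring RNAs lie right of 0 in both lines, from 0.20 (Snrpb) to 1.18 (Snrpg), and Srsf1 lies farthest left, at -1.11 and -1.12.

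These values are relative to the bulk of the RNAs in each library. Both fractions were scaled so that the typical RNA is about equal, and a higher value is a higher level relative to the typical RNA. It is not always a larger share of a fraction's reads. More molecules in Ps and fewer of other RNAs cannot be told apart. When reads were scaled to the sample totals instead, the median of all RNAs moved by -0.24 in HBB and by -0.27 in Pkp4 cUTR, and members moved with it. Their median was then -0.03 in HBB against -0.23 for all RNAs, and -0.13 against -0.25 in Pkp4 cUTR. This scaling moves every RNA by nearly the same amount. The distance of the members from the typical RNA could therefore hardly change, and this comparison does not test it. On that scale 14 members were higher and 21 lower in HBB, beside 15% and 43.5% of all RNAs, and 14 were higher and 25 lower in Pkp4 cUTR, beside 13.9% and 45.5%. Directions below are relative to the typical RNA, and log2 FC values smaller than this shift are below or near 0 when read against sample totals.

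The 7 proteins of the Sm ring (Snrpb, Snrpd1, Snrpd2, Snrpd3, Snrpe, Snrpf and Snrpg), which form the core around the RNA of the U1, U2, U4 and U5 particles, moved together. All 7 were higher in Ps in both lines (100%, beside 24.1% of all RNAs). Their median log2 FC was 0.76 in HBB and 0.80 in Pkp4 cUTR. Snrpg was at 7.13, 7.02, 7.34 and 6.83 log2 CPM in HBB Ps and at 5.90, 5.85, 5.91 and 5.97 in HBB CB. Its Pkp4 cUTR values were 7.29, 7.46, 7.77 and 6.97 in Ps and 6.47, 6.14, 6.07 and 6.57 in CB. Every Ps library lay above every CB library in both lines. The log2 FC of Snrpg was 1.18 ± 0.14 (SE, n = 4 per fraction) in HBB (limma adjusted p = 2.16e-06) and 1.06 ± 0.14 in Pkp4 cUTR (7.20e-06), a mean fold of 2.17.

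Snrpe was next, at 7.05, 6.96, 7.30 and 6.89 log2 CPM in HBB Ps against 5.95, 5.93, 5.88 and 6.07 in CB. In Pkp4 cUTR it was at 7.11, 7.37, 7.57 and 7.18 in Ps against 6.34, 6.03, 5.99 and 6.60 in CB, again with no overlap. Its log2 FC was 1.09 ± 0.13 and 1.07 ± 0.13 (limma adjusted p = 1.10e-06 and 1.70e-06). Snrpf (0.85 and 0.80), Snrpd2 (0.76 and 0.82), Snrpd1 (0.70 and 0.57) and Snrpd3 (0.65 and 0.48) followed, each with groups that did not overlap in either line. Of the 100-base stretches of the Snrpe, Snrpf and Snrpg transcripts, 19.3%, 16.1% and 13.8% also occur in another gene, so part of their counts may be uncertain. The study sequenced longer reads, in pairs, so such shares, here and below, can overstate the ambiguity of its reads.

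Snrpb, which encodes SmB/B′, stood apart from the rest of the ring with the smallest difference. It was at 8.30, 8.21, 8.29 and 8.21 log2 CPM in HBB Ps and at 8.01, 8.0, 7.97 and 8.21 in CB, and at 8.41, 8.42, 8.63 and 8.28 in Pkp4 cUTR Ps and 8.29, 8.14, 8.09 and 8.32 in CB. Ps and CB libraries overlapped in both lines. The log2 FC was 0.20 ± 0.08 in HBB (limma adjusted p = 0.0355) and 0.23 ± 0.08 in Pkp4 cUTR (0.0219). The HBB call was lost without replicate 1, 2 or 3 of CB or replicate 1 or 3 of Ps (log2 FC 0.18 to 0.19). The Pkp4 cUTR call was lost without replicate 2 or 3 of CB or replicate 3 of Ps (0.16 to 0.20). With reads scaled to sample totals, Snrpb was at -0.033 in HBB and -0.038 in Pkp4 cUTR. Its level per kilobase of annotated exon in CB, 142 CPM, was the highest of the ring, and Snrpd1 was the lowest at 10.96 CPM.

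**Figure D2:**
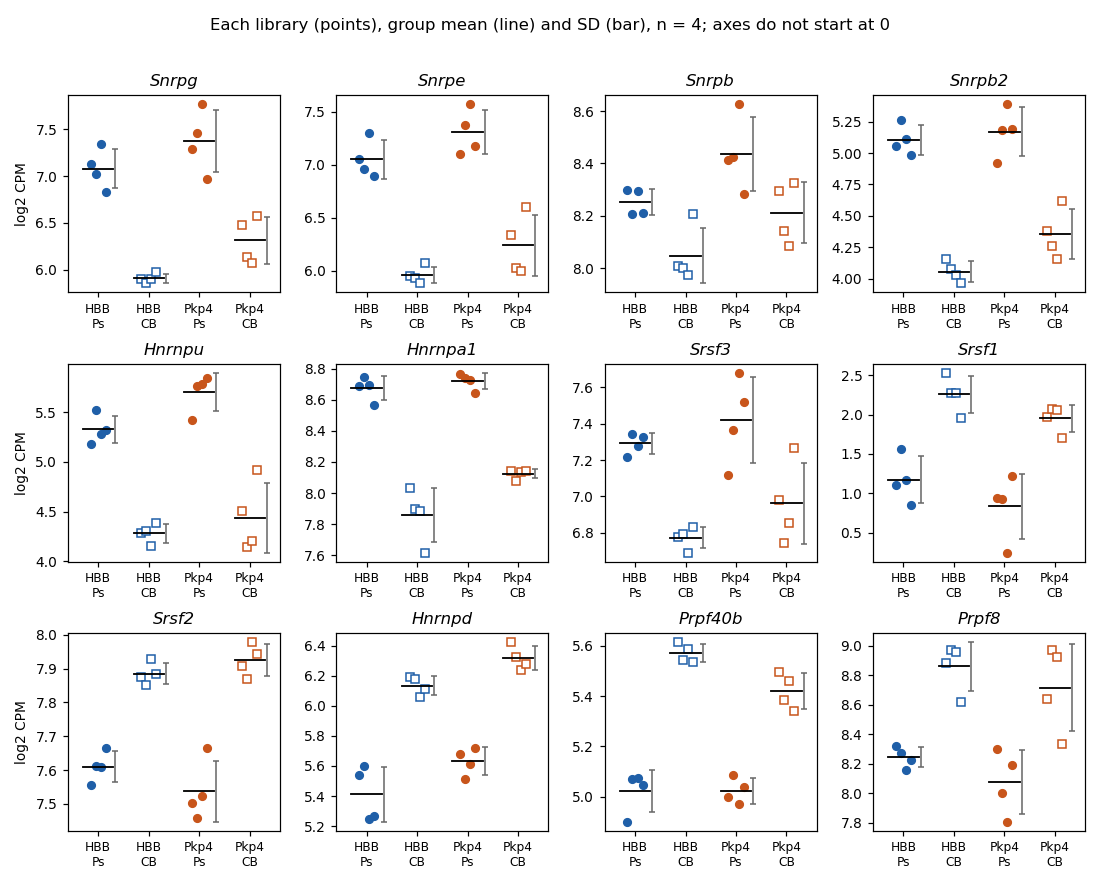
Each panel shows 1 RNA, with log2 CPM on the vertical axis (not from 0) and a point for each library of HBB Ps, HBB CB, Pkp4 cUTR Ps and Pkp4 cUTR CB, the group mean as a line and the SD as a bar (n = 4). Ps points of Snrpg, Snrpe, Snrpb2, Hnrnpu and Hnrnpa1 sit above all CB points of their line, and those of Srsf1, Srsf2, Hnrnpd, Prpf40b and Prpf8 sit below.

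The 2 proteins specific to the U1 particle, which recognizes the 5′ splice site, moved little. Snrpc was higher in Ps in both lines (log2 FC 0.28 ± 0.08 and 0.26 ± 0.09, limma adjusted p = 0.00945 and 0.0143), and its Pkp4 cUTR call was lost without Ps replicate 3 (0.19). Snrpa was at 0.10 ± 0.08 and 0.13 ± 0.08 and did not pass the test in either line (adjusted p = 0.256 and 0.164).

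The U2 particle, which recognizes the branch point, split into RNAs that rose and RNAs that fell, and the split was the same in both lines. Higher in Ps were 6 of its 11 members (54.5%) and lower were 3 (27.3%), beside 28.3% and 28.9% of all RNAs in HBB and 28.2% and 28.5% in Pkp4 cUTR. With reads scaled to sample totals, 2 were higher and 5 lower in each line. Among all RNAs on that scale, 15% were higher and 43.5% lower in HBB, and 13.9% and 45.5% in Pkp4 cUTR. Snrpb2 (U2 B″) was at 5.05, 5.26, 5.11 and 4.99 log2 CPM in HBB Ps and at 4.16, 4.08, 4.03 and 3.96 in CB. In the other line Snrpb2 was at 4.92, 5.18, 5.39 and 5.19 in Ps and at 4.38, 4.26, 4.16 and 4.62 in CB. The groups did not overlap in either line, and the log2 FC was 1.05 ± 0.11 and 0.82 ± 0.10 (limma adjusted p = 2.60e-07 and 3.92e-06). Snrpa1, the U2 A′ protein that binds with it, was at 0.32 ± 0.11 and 0.27 ± 0.11 (adjusted p = 0.0181 and 0.0367). The HBB call of Snrpa1 was lost without Ps replicate 1 (0.27), and the Pkp4 cUTR call without CB replicate 2 or 3 or Ps replicate 2 or 3, with the lowest value, 0.15, without CB replicate 3.

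Within SF3B, the module that holds the branch point, Sf3b1 was higher in Ps (0.34 ± 0.10 and 0.60 ± 0.10, limma adjusted p = 0.00664 and 7.41e-05), as were its small subunits Sf3b5 (0.49 and 0.41) and Sf3b6 (0.41 and 0.28). The large scaffold Sf3b3 was lower, at 6.96, 6.98, 7.08 and 7.14 log2 CPM in HBB Ps against 7.40, 7.44, 7.52 and 7.25 in CB. The same RNA was at 7.17, 7.01, 7.01 and 7.17 in Pkp4 cUTR Ps against 7.39, 7.57, 7.62 and 7.28 in CB. Ps and CB did not overlap in either line, and the log2 FC was -0.37 ± 0.08 in both (adjusted p = 0.00100 and 8.76e-04). Sf3b2 and Sf3b4 did not pass the test (between -0.24 and -0.03), but Sf3b4 passed in Pkp4 cUTR without Pkp4 cUTR CB replicate 4 (-0.29, limma adjusted p = 0.0309) or Ps replicate 4 (-0.31, 0.0213). Of the positions of Sf3b4, 36.9% also occur in another gene.

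The SF3A subunits also differed among themselves. Sf3a3 was higher (0.23 ± 0.09 and 0.33 ± 0.09, limma adjusted p = 0.0399 and 0.00474), whereas Sf3a2 (-0.31 and -0.35) and Sf3a1 (-0.26 and -0.25) were lower. The HBB call of Sf3a3 was lost without CB replicate 2, 3 or 4 or Ps replicate 1 or 2 (0.19 to 0.24). The Pkp4 cUTR call of Sf3a1 was lost without CB replicate 2 or 3 or Ps replicate 2 (-0.22 to -0.19).

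U2AF, which binds the 3′ end of introns as a pair of a small and a large subunit, had its subunits in opposite directions. U2af1, the small subunit, was higher in Ps (0.27 ± 0.09 and 0.24 ± 0.09, limma adjusted p = 0.0186 and 0.0345), and U2af2, the large one, was lower (-0.23 ± 0.08 and -0.30 ± 0.08, adjusted p = 0.0163 and 0.00276). U2af2 lay at 7.55, 7.40, 7.62 and 7.64 log2 CPM in HBB Ps, below its CB values of 7.74, 7.69, 7.87 and 7.83. U2af1 lay at 7.12, 7.01, 7.12 and 6.98 in HBB Ps, above its CB values of 6.72, 6.76, 6.80 and 6.86. In Pkp4 cUTR the U2af2 groups did not overlap either, whereas the U2af1 groups did. The U2af1 call in Pkp4 cUTR was lost without CB replicate 2 or 3 or Ps replicate 2 or 3 (0.14 to 0.25), and the U2af2 call in HBB without CB replicate 3 or Ps replicate 2 (-0.20 and -0.18). Of the 100-base positions of U2af1, 49.5% also occur in 3 other annotated genes. The related U2af1l4 did not pass the test (-0.00 and 0.07), and 97.1% of its positions are shared with the overlapping gene Gm49396.

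Among 5 proteins of the U4/U6.U5 tri-snRNP, none rose and 2 fell (40%) in each line. Among all RNAs, 28.3% were higher and 28.9% lower in HBB, and 28.2% and 28.5% in Pkp4 cUTR. Prpf8, the large scaffold at the catalytic centre, was at 8.32, 8.27, 8.16 and 8.23 log2 CPM in HBB Ps and at 8.88, 8.97, 8.96 and 8.62 in CB. Pkp4 cUTR Ps libraries held it at 8.30, 8.0, 7.81 and 8.19 and the CB libraries at 8.64, 8.97, 8.92 and 8.34. Every Ps value lay below every CB value of its line, the closest being Ps replicate 1 (8.30) and CB replicate 4 (8.34) of Pkp4 cUTR. The log2 FC was -0.61 ± 0.13 and -0.64 ± 0.13 (limma adjusted p = 4.46e-04 and 3.02e-04). Prpf4, a U4/U6 protein, was also lower (-0.38 ± 0.10 and -0.28 ± 0.10, adjusted p = 0.00278 and 0.0205). Its Pkp4 cUTR call was lost without CB replicate 2 or Ps replicate 1 or 3 (-0.26 to -0.24). Prpf3, Prpf31 and Prpf6 lay between -0.06 and 0.11 and did not pass the test.

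Of 8 other Prpf factors, 5 were higher and 1 lower in HBB (62.5% and 12.5%, beside 28.3% and 28.9% of all RNAs). In Pkp4 cUTR 4 were higher and 1 lower (50% and 12.5%, beside 28.2% and 28.5%). The lower one in both lines was Prpf40b, a counterpart of a yeast U1 protein. Prpf40b was at 4.90, 5.07, 5.07 and 5.05 log2 CPM in HBB Ps against 5.62, 5.55, 5.59 and 5.54 in CB, and at 5.00, 5.08, 4.97 and 5.04 in Pkp4 cUTR Ps against 5.50, 5.38, 5.46 and 5.34 in CB. Its fractions did not overlap in either line, and the log2 FC was -0.55 ± 0.06 and -0.40 ± 0.06 (limma adjusted p = 1.03e-06 and 4.08e-05). Prpf4b, a kinase of the spliceosome, was higher (0.70 ± 0.14 and 0.81 ± 0.14), as were Prpf19, the core of a complex needed for catalysis (0.23 and 0.31), and Prpf38a (0.27 and 0.29). Prpf38b did not pass the test (-0.23 and 0.01).

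The SR proteins split in both directions around a median near 0 (0.03 and 0.00). Of 10, 2 were higher (20%) and 3 lower (30%) in each line. Among all RNAs, 28.3% were higher and 28.9% lower in HBB, and 28.2% and 28.5% in Pkp4 cUTR. The lower share thus lay near the background and the higher share below it. The 3 lower were Srsf1, Srsf2 and Srsf5 in both lines. Srsf1 was at 1.10, 1.56, 1.17 and 0.85 log2 CPM in HBB Ps against 2.53, 2.28, 2.28 and 1.95 in CB. Pkp4 cUTR gave 0.94, 0.93, 0.25 and 1.23 in Ps against 1.96, 2.08, 2.06 and 1.70 in CB. No Ps library reached a CB library of its line, and the log2 FC was -1.11 ± 0.18 and -1.12 ± 0.20 (limma adjusted p = 5.51e-05 and 1.49e-04). At a mean of 1.55 log2 CPM, Srsf1 rested on few reads, and it passed the 2-fold limit in neither line on the log2(CPM + 1) scale. It also missed that limit without HBB Ps replicate 4 in HBB and without Pkp4 cUTR Ps replicate 3 in Pkp4 cUTR.

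Srsf2 was far more abundant and changed less. Its values were 7.55, 7.61, 7.61 and 7.67 log2 CPM in HBB Ps and 7.88, 7.85, 7.93 and 7.88 in CB, and 7.50, 7.46, 7.52 and 7.67 in Pkp4 cUTR Ps and 7.91, 7.87, 7.98 and 7.94 in CB. The fractions were cleanly apart, with a log2 FC of -0.27 ± 0.06 and -0.39 ± 0.06 (limma adjusted p = 6.43e-04 and 2.56e-05). Srsf5 was lower by a similar amount (-0.24 ± 0.08 and -0.36 ± 0.08, adjusted p = 0.0140 and 6.82e-04), and its HBB call was lost without CB replicate 1 (-0.20).

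Srsf3, which also carries mRNA out of the nucleus, was the SR protein RNA with the highest log2 FC averaged over the lines. Its HBB Ps libraries were at 7.22, 7.34, 7.28 and 7.33 log2 CPM and the CB libraries at 6.78, 6.79, 6.69 and 6.83. Pkp4 cUTR Ps libraries were at 7.12, 7.37, 7.68 and 7.52 and CB libraries at 6.98, 6.74, 6.85 and 7.26, which overlapped. The log2 FC was 0.52 ± 0.11 and 0.46 ± 0.11 (limma adjusted p = 5.04e-04 and 0.00145). Its close paralog Srsf7 was at 0.06 ± 0.11 and 0.08 ± 0.11 and did not pass the test. Srsf10 was higher in Pkp4 cUTR (0.54 ± 0.13, adjusted p = 0.00200) and just missed the threshold in HBB (0.31 ± 0.13, 0.0533), where it passed without any 1 of 6 libraries left out singly (0.31 to 0.37). Srsf9 passed in HBB (0.22 ± 0.08, 0.0317) and not in Pkp4 cUTR (0.11 ± 0.08, 0.292), where it passed without replicate 4 of both CB groups (0.16, 0.0407). The HBB call of Srsf9 was lost without any 1 of CB replicates 1 to 3 or Ps replicates 1 to 3 (0.18 to 0.22). Of the 100-base positions, 20.7% in Srsf3, 18.8% in Srsf5 and 12.9% in Srsf10 also occur in other annotated genes.

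The hnRNPs, at 20 the largest role, were more often higher than lower in Ps relative to the typical RNA. In HBB 12 were higher and 3 lower (60% and 15%, beside 28.3% and 28.9% of all RNAs), and in Pkp4 cUTR 9 were higher and 3 lower (45% and 15%, beside 28.2% and 28.5%). With reads scaled to sample totals, 3 were higher and 4 lower in HBB, and 4 and 8 in Pkp4 cUTR. Among all RNAs on that scale, 15% were higher and 43.5% lower in HBB, and 13.9% and 45.5% in Pkp4 cUTR. Hnrnpu, a scaffold protein of the nucleus, had the highest mean log2 FC of the 66 members. It was at 5.18, 5.52, 5.28 and 5.32 log2 CPM in HBB Ps and at 4.28, 4.31, 4.16 and 4.39 in CB, and at 5.42, 5.76, 5.78 and 5.84 in Pkp4 cUTR Ps and 4.50, 4.14, 4.2 and 4.91 in CB. Every Ps library lay above every CB library, and the log2 FC was 1.05 ± 0.13 and 1.27 ± 0.13 (limma adjusted p = 3.83e-06 and 5.29e-07). Exons of Hnrnpu overlap those of Cox20 on the other strand over 804 bases, and the strand setting of the counting is not given in the sources used here. The libraries were made with a stranded kit. Exons on the other strand also overlap those of Prpf31 (984 bases), Hnrnpab (809), Hnrnpf (806), Srsf2 (748), Snrpf (735), Hnrnpr (715), Sf3a2 (429) and Hnrnpd (385).

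Hnrnpa1, an abundant repressor of splice sites, was at 8.69, 8.74, 8.70 and 8.56 log2 CPM in HBB Ps against 8.03, 7.90, 7.88 and 7.62 in CB. Pkp4 cUTR Ps libraries stood at 8.76, 8.74, 8.73 and 8.65 and CB libraries at 8.14, 8.08, 8.14 and 8.14. No libraries of the fractions overlapped, and the log2 FC was 0.82 ± 0.08 and 0.60 ± 0.08 (limma adjusted p = 9.88e-08 and 4.02e-06). The related Hnrnpa2b1 rose by a smaller amount (0.37 ± 0.09 and 0.33 ± 0.09, adjusted p = 0.00264 and 0.00649). Hnrnpa3 (0.59 and 0.51), Hnrnpr (0.51 and 0.65), Hnrnph2 (0.37 and 0.66), Hnrnpm (0.40 and 0.47), Hnrnph1 (0.28 and 0.40) and Hnrnpc (0.39 and 0.29) were higher in both lines. Hnrnpa0 (0.25 and 0.13), Hnrnph3 (0.32 and 0.13) and Hnrnpab (0.16 and 0.01) passed the test in HBB and not in Pkp4 cUTR, and no difference between the lines was detected for them. The HBB calls of Hnrnph3 (lowest value 0.26, without Ps replicate 3) and Hnrnpab (0.14, without CB replicate 1) were lost without any 1 of 6 and 7 libraries, and that of Hnrnph1 without CB replicate 4 (0.20) or Ps replicate 2 (0.23). Of the 100-base positions, 42.2% in Hnrnpa1 and 90.2% in Hnrnpa3 also occur in other annotated genes, so these 2 values are uncertain. In Hnrnpm the share is 27.9%, where its exons overlap those of March2 on the same strand over 1169 bases.

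Hnrnpd (AUF1), which binds AU-rich elements and speeds mRNA decay, had the lowest log2 FC of the hnRNPs. It was at 5.54, 5.6, 5.25 and 5.26 log2 CPM in HBB Ps and at 6.19, 6.18, 6.06 and 6.12 in CB, and at 5.68, 5.51, 5.62 and 5.72 in Pkp4 cUTR Ps and 6.42, 6.32, 6.24 and 6.28 in CB. The gap between the fractions was wider than the range within any of them, with a log2 FC of -0.72 ± 0.08 and -0.68 ± 0.08 (limma adjusted p = 8.92e-07 and 1.88e-06). Hnrnpf (-0.30 ± 0.10 and -0.52 ± 0.10, adjusted p = 0.0189 and 3.69e-04) and Hnrnpl (-0.28 ± 0.07 and -0.29 ± 0.07, 0.00288 and 0.00235) were lower as well. The HBB call of Hnrnpf was lost without CB replicate 1 or 2 or Ps replicate 1 or 3 (-0.28 to -0.26). Of the positions of Hnrnpf, 43.5% occur in other genes.

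The members were next compared by features of their transcripts, taken from GENCODE vM21 on GRCm38 as the coding transcript with the longest coding sequence. Members with a higher share of G and C had a lower log2 FC (mean of the lines), with Spearman's rho -0.51 over 66 members, beside -0.40 over the 11353 RNAs with a coding transcript. Longer coding sequences also went with a lower log2 FC (rho -0.32 over members and -0.32 over all), whereas 3′UTR length had rho 0.10 and -0.09. These are correlations across genes of the same 16 libraries, and genes are not independent replicates. The 29 members higher in both lines had a median of 44.6% G and C and 936 coding bases, the 13 lower in both had 50% and 1455, and the other 24 had 48.5% and 1332.

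Individual members show both the trend and its exceptions. Snrpg, Snrpf and Snrpe have coding sequences of 228, 258 and 276 bases, the shortest of the Sm ring, and the longest in the ring is that of Snrpb, 693 bases. Prpf8, at 7005 coding bases, was lower in Ps. Sf3b1, at 3912 coding bases and 42.1% G and C, was higher, whereas Hnrnpd, at 41.7% G and C, was lower. Prpf40b, which was lower, has 58.3% G and C.

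**Figure D3:**
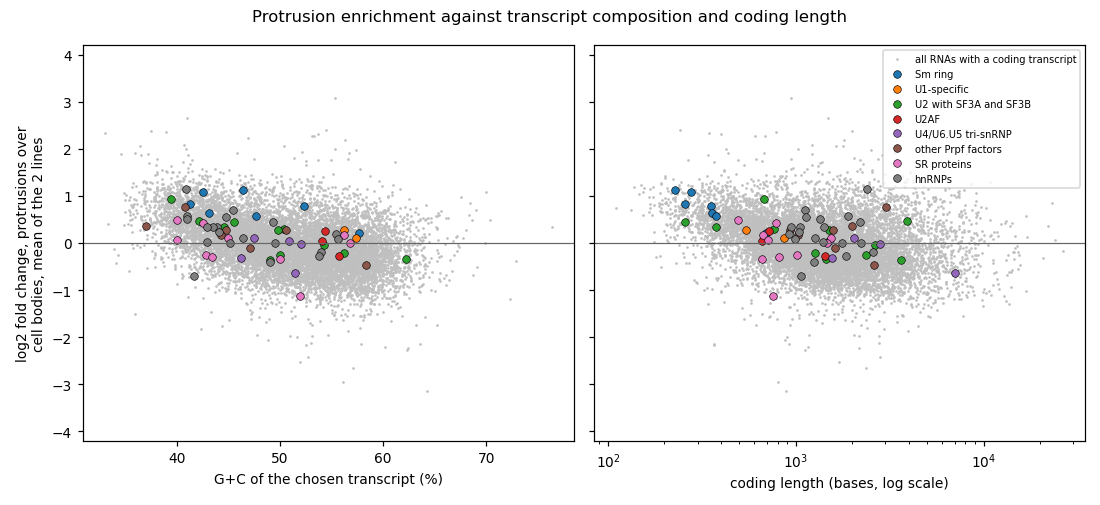
The vertical axis is the log2 fold change of protrusions over cell bodies averaged over the 2 lines, against the G and C share of the chosen transcript (left, %) and its coding length (right, bases, log scale), with 65 members coloured by role over the 11353 RNAs with a coding transcript in grey. The members follow the downward slope of the grey cloud in both panels, and the 7 Sm ring RNAs lie at the short end of the right panel, from 228 to 693 bases, all above 0.

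The first transcribed bases were examined because a run of pyrimidines at the 5′ end marks the mRNAs of ribosomal proteins, whose translation follows growth signals. RefSeq starts on GRCm38 were found for 57 of the 66 members, at 75 positions. A run of 5 or more C or T beginning at one of the first 5 bases occurred at 13 of the 75 (17.3%), beside 14.7% of all 32851 starts of RefSeq genes and 34.2% of 73 starts of ribosomal protein genes in the table. With C as the first base and 4 C or T after it, the shares were 2.67%, 2.51% and 17.8%. Members thus lay near the share of all starts. Windows of 30 bases follow for the 4 members past the 2-fold rule with the highest mean log2 FC among those with a listed start, and for the 3 members with the lowest, with the 15 transcribed bases in capitals after 15 bases before the start.
Hnrnpu, chr1:178337801-178337830, minus strand: gggggcggggcgcctATATTACGTGCGCGG
Snrpg, chr6:86371525-86371554, plus strand: cgcgtttctgagcctGCTCACTCCTTCGCC
Snrpe, chr1:133610266-133610295, minus strand: ttccgtttccgggtcTTGCTTCCGGAAGTC
Snrpb2, chr2:143063054-143063083, plus strand: gaagctcttccggtaTTAGTTTCAAGCGGA
Prpf8, chr11:75486762-75486791, plus strand: atctcggcgtctattGGATGAGCTTCTGAG
Hnrnpd, chr5:99978924-99978953, minus strand: ccgttcttccgtcggCCATTTTAGGTGGTC
Srsf1, chr11:88047358-88047387, plus strand: gataggtttcacccaATCTTTTTAGAGCGC
Of these 7, the windows of Snrpe and Srsf1 hold the run of 5 or more, and these 2 RNAs moved in opposite directions.

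The rest of the splicing pathway was covered by 9 lists, of which 125 of 129 genes were in the table. In HBB 54 were higher (43.2%, beside 28.3% of all RNAs) and 27 lower in Ps (21.6%, beside 28.9%), and in Pkp4 cUTR 57 were higher (45.6%, beside 28.2%) and 27 lower (21.6%, beside 28.5%). The same shares of all RNAs are the background of each list below. The list of LSm proteins, which form the ring of the U6 particle in place of Sm proteins, had 8 of 8 higher in HBB and 7 of 8 in Pkp4 cUTR, with medians of 0.55 and 0.53. Lsm5 was highest (1.18 ± 0.16 and 0.88 ± 0.16, limma adjusted p = 8.89e-06 and 1.27e-04) and Lsm8 lowest (0.32 ± 0.13 and 0.14 ± 0.13, adjusted p = 0.0430 and 0.349). The Lsm8 call in HBB was lost without CB replicate 1 or 2, Ps replicate 1, 2 or 3, or Pkp4 cUTR Ps replicate 2 (0.26 to 0.33). Naa38, listed with them for its LSm domain, is a subunit of an acetyltransferase.

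The other lists held RNAs in both directions. The SMN complex and its partners, which load Sm proteins on snRNA, had 5 of 12 higher and 2 lower in HBB, and 4 higher and 1 lower in Pkp4 cUTR, from Gemin7 (0.76 and 0.73) to Gemin5 (-0.28 and -0.20), which passed in Pkp4 cUTR without CB replicate 4 or Ps replicate 1 or 4 of that line (-0.26 to -0.23). Factors of U2 recruitment had 6 and 7 of 12 higher and 1 lower, from Htatsf1 (1.09 and 1.34) to Cherp (-0.37 and -0.33). The PRP19 complex and catalytic spliceosome had 11 of 24 higher in each line and 6 and 4 lower, with Cdc5l at 0.68 and 0.95 and Cwc25 at -0.49 and -0.56. U5 and tri-snRNP proteins had 4 and 5 of 10 higher and 3 lower, with Txnl4a at 0.62 and 0.64 and Sart3 at -0.35 and -0.28. The exon junction complex, deposited on spliced mRNA, had 2 of 5 higher and 1 lower in each line, with Rbm8a at 0.43 and 0.38 and Casc3 at -0.49 and -0.45.

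Regulators related to SR proteins and hnRNPs held the extremes of the pathway. Matr3, a protein of the nuclear matrix, was the most enriched (1.40 ± 0.13 and 1.71 ± 0.13, limma adjusted p = 1.21e-07 and 2.68e-08), and the splicing regulators Mbnl1 (0.81 and 1.16) and Mbnl2 (0.81 and 1.2) were also higher, with Rbfox2 (-0.47 and -0.48) at the low end of the list by mean. That list had 12 and 13 of 30 higher and 7 and 9 lower. Srrm2, a scaffold of nuclear speckles, was the most depleted (-1.27 ± 0.15 and -1.01 ± 0.15, adjusted p = 1.43e-06 and 1.90e-05), beside Rbm25 (0.93 and 1.19) at the other end of a list with 4 and 5 of 16 higher and 5 and 6 lower. Among 8 kinases and importers of SR proteins, 2 and 3 were higher and 2 lower, from Clk2 (-0.94 ± 0.07 and -0.91 ± 0.07, 1.21e-08 and 3.32e-08) to Srpk2 (0.42 and 0.47). A further list of 7 snRNP proteins whose symbols begin with Snrnp, which the rule does not take, had 2 higher in each line (Snrnp25 at 0.66 and 0.67, and Snrnp27), and 1 lower in Pkp4 cUTR (Snrnp48, -0.69), which was also lower in HBB without CB replicate 2 (-0.56).

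**Figure D4:**
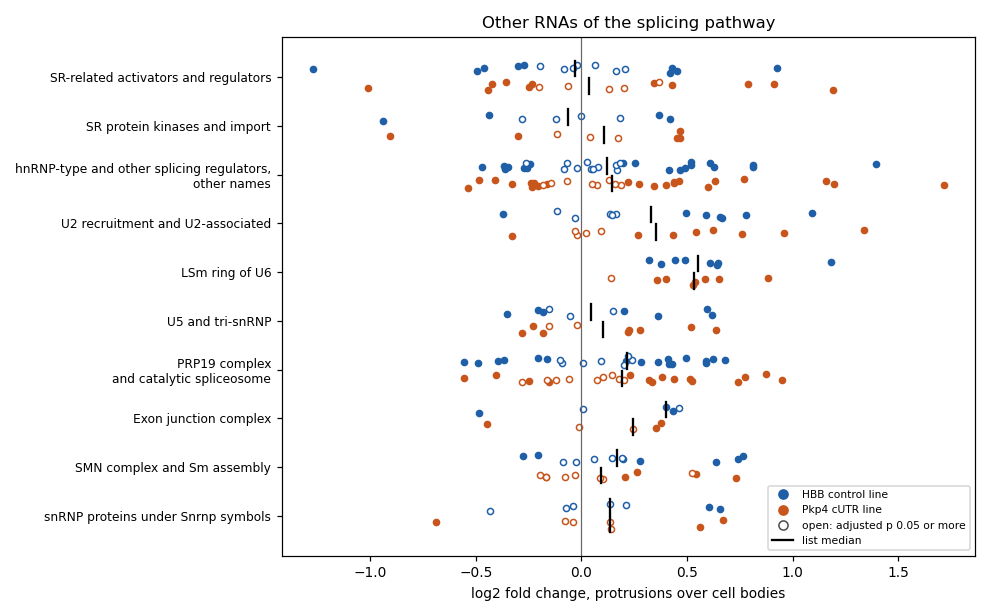
Each point is 1 RNA of the lists of other splicing genes (rows), placed by its log2 fold change of protrusions over cell bodies in the HBB control line (blue) or the Pkp4 cUTR line (orange), filled where adjusted p is under 0.05, with the list median as a black line. Only the LSm list has every point above 0, and Matr3 (1.40 and 1.71) and Srrm2 (-1.27 and -1.01) are the extremes.

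The second question was whether the Pkp4 3′UTR construct changed where these RNAs lay. It was addressed by log2(Diff FC), the log2 FC of the Pkp4 cUTR line minus that of HBB. No member passed a limma adjusted p of 0.05, beside 0% of all RNAs, and at an unadjusted p under 0.05 there were 0 of 66 members, beside 2.33% of all RNAs. The fits with an intensity trend and no weights, with quantile normalization and with the other settings tried also called 0. Values ran from -0.23 to 0.46 with a median of -0.02. The smallest unadjusted p was that of Hnrnpa1 (log2(Diff FC) -0.22 ± 0.11, limma unadjusted p = 0.0508, adjusted p = 1). Hnrnpll (-0.23 ± 0.13) and Snrpd3 (-0.16 ± 0.10) followed on the negative side. Hnrnph2 (0.29 ± 0.16), Sf3b1 (0.25 ± 0.14) and Prpf40b (0.15 ± 0.09) had the smallest p on the positive side. Over all 66 members the SE ranged from 0.08 to 0.37, and a p above the threshold does not show that the lines were alike. Outside the members, Luc7l3 of the SR-related list, seen after its values were known, had log2(Diff FC) 0.70 at an unadjusted p of 0.00573.

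**Figure D5:**
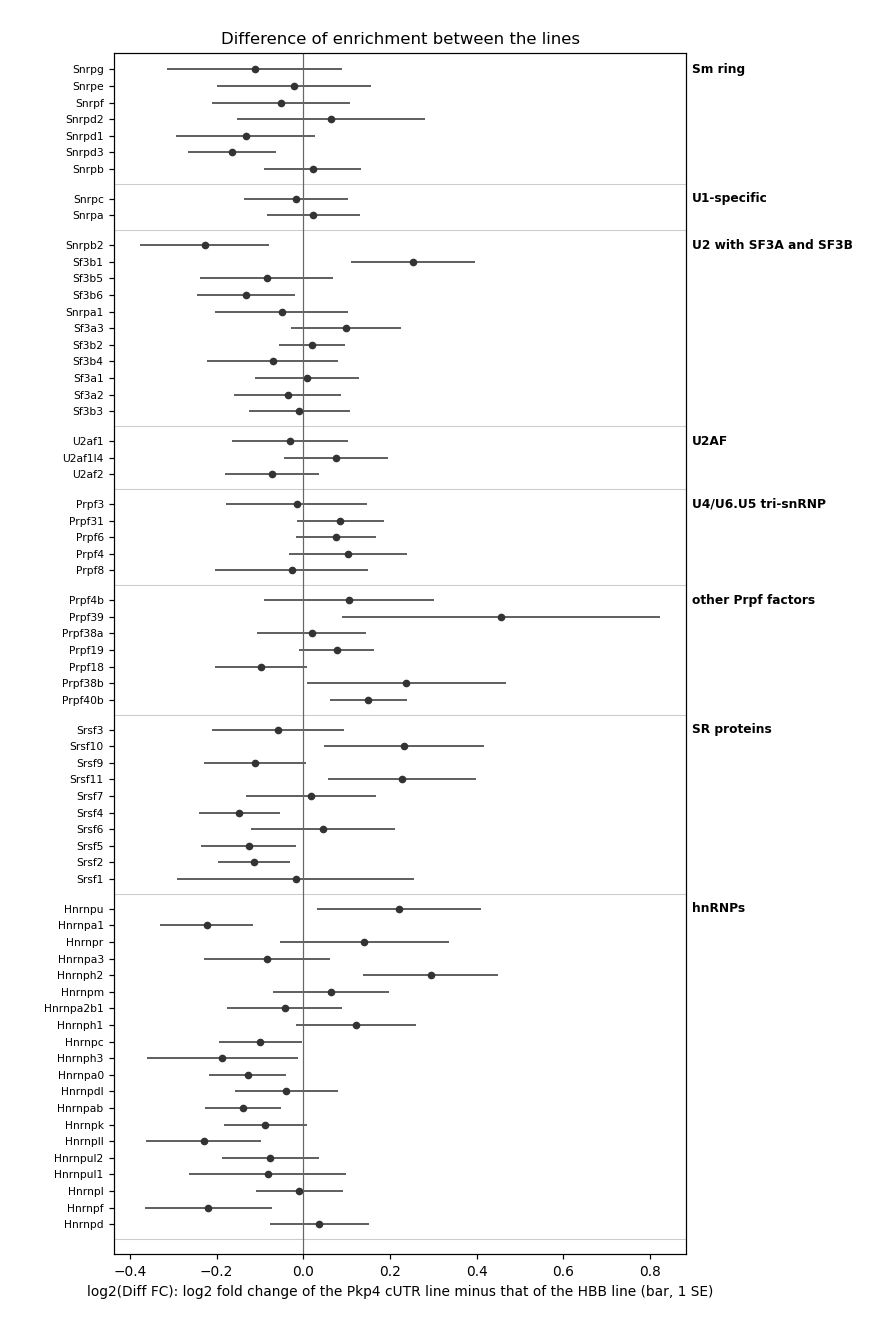
Rows are 65 of the 66 RNAs by role and the horizontal axis is log2(Diff FC), the log2 fold change of the Pkp4 cUTR line minus that of the HBB line (point, fitted value; bar, 1 SE). Values lie between -0.23 and 0.46 on both sides of 0, and none passed the test.

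The lines were also compared within each fraction. These comparisons use the same libraries as those above. In CB, 1 member was higher in Pkp4 cUTR (beside 3.42% of all RNAs) and 0 were lower (beside 5.55%), and by unadjusted p under 0.05 there were 14 higher (21.2%, beside 10.8% of all RNAs) and 2 lower (3.03%, beside 12.1%). The 1 was Hnrnpa1 (0.27 ± 0.08, limma adjusted p = 0.0311), at 8.14, 8.08, 8.14 and 8.14 log2 CPM in Pkp4 cUTR against 8.03, 7.90, 7.88 and 7.62 in HBB. The groups did not overlap, but the call was lost without any 1 of CB replicates 2, 3 and 4 of HBB and 1, 3 and 4 of Pkp4 cUTR (0.19 to 0.28), and without replicate 4 of both CB groups it was at 0.18 (adjusted p = 0.159). Hnrnpc (0.20) and Hnrnpa0 (0.18) had the next smallest p among higher values, and Prpf40b (-0.15), Sf3b1 (-0.16) and Srsf1 (-0.32) the smallest among lower ones, none past the adjusted threshold. Hnrnpc passed without Pkp4 cUTR CB replicate 3 (0.24, limma adjusted p = 0.0413) and Hnrnpa0 without HBB CB replicate 4 (0.23, 0.0292). Over the 7 Sm ring RNAs all values were above 0, from 0.07 (Snrpd3) to 0.41 (Snrpg), and none passed.

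In Ps, 1 member was higher in Pkp4 cUTR (beside 2.89% of all RNAs) and 0 were lower (beside 4.26%), and by unadjusted p under 0.05 there were 8 higher (12.1%, beside 10.6% of all RNAs) and 0 lower (beside 11.4%). The share of higher members thus lay near the background. Sf3a3 was at 5.39, 5.56, 5.82 and 5.49 log2 CPM in Pkp4 cUTR Ps and at 5.32, 5.35, 5.14 and 5.19 in HBB Ps. The groups did not overlap, and the difference was 0.31 ± 0.09 (limma adjusted p = 0.0453). This call was lost without any of 10 libraries left out singly (0.23 to 0.34), which were HBB CB replicates 1 to 3, HBB Ps replicates 1, 3 and 4, Pkp4 cUTR CB replicate 1 and Pkp4 cUTR Ps replicates 2 to 4. Hnrnpu (0.38 ± 0.13) and Hnrnpd (0.22 ± 0.08) had the next smallest p among higher values (adjusted p = 0.0902 and 0.125). Hnrnpu passed without Pkp4 cUTR CB replicate 4 (0.38, limma adjusted p = 0.0226) or Ps replicate 1 (0.47, 0.0341). U2af2 (-0.16), Prpf18 (-0.13) and Srsf9 (-0.15) had low values with the smallest p, none past the threshold.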

How the data were processed

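RNA was sequenced from 4 replicates of each fraction of each line. Per the study's methods and the submitters' processing notes, reads were demultiplexed with bcl2fastq 1.8.4, aligned to mm10 with STAR 2.4.2a, counted per gene and kept above a low-value filter. The authors deposited log2 CPM with scaled library sizes (limma 3.26.1) for 12900 RNAs. Whole reads were recovered from these values (100% within 0.01 of a whole number, with an offset of 0.5 read), and every mean level in the text is on the deposited log2 CPM scale. Scaling factors lay between 0.83 and 0.97 in Ps and between 1.07 and 1.11 in CB. The file holds log values, so the test was limma 3.58.1 (R 4.3.3) with voom weights on the recovered reads and the authors' scaled library sizes, with 1 mean per group over 16 samples and Benjamini-Hochberg adjustment over all 12900 RNAs. All tests were two-sided. The scripts were tested on simulated data. The study describes the replicates as independent, from repeated experiments, within 1 selected population of each line, so p-values measure the spread between experiments on these populations. Each ± is the SE of the limma fit, and no interval for counting error alone is given.

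Same-numbered libraries of the lines deviated together (r 0.331, 0.421, 0.55 and 0.628 in CB, and 0.196, 0.316, 0.361 and 0.392 in Ps). Comparisons of the lines were therefore repeated with a replicate block shared by the lines, an alternative chosen after seeing the data. It left the counts of calls at 1 and 1. The block gave each replicate number 1 effect over Ps and CB together, so it does not show what a pairing within each fraction would give. Transcript features came from GENCODE vM21 and starts from RefSeq, both GRCm38, matched by symbol. Named are, for each role, the 2 members with the highest and the 2 with the lowest log2 FC averaged over the lines, members past the 2-fold rule, the 3 smallest p in each direction for each comparison between lines, the ends of each pathway list, and paralog pairs. Others (Snrpf, Snrpd1, Snrpd2, Srsf5, Srsf9, Hnrnpl, Hnrnpr, Hnrnpa3, Hnrnph1, Hnrnph2, Hnrnph3, Hnrnpc, Hnrnpm, Hnrnpa0, Hnrnpab, Sf3a1, Sf3a3, Sf3b2, Sf3b4, Sf3b5, Sf3b6, Snrpa1, Prpf6, Prpf19, Prpf38a, Naa38, Mbnl1, Mbnl2, Luc7l3, Snrnp27, Eftud2, Isy1, Gemin6, Sfpq, Clk4 and Tial1) were named after their values were seen. The members and lists were chosen with earlier results of these data known. Of the members, 1, which stays in the counts, and 1 marker are not reported here by name.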

Additional observations from a re-analysis of the deposited data

Results flagged for a closer look

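Of 232 groups of 4 libraries, from 58 members, 9 held a library whose gap to the nearest other, divided by the range of the group, passed Dixon's 95% critical value. Chance gives about 1 in 20 groups, so 9 of 232 is no more than chance gives. Several of the 9 fell on replicate 4 of a CB group. HBB CB replicate 4 stood apart for Hnrnpa0 (7.25 log2 CPM against 7.04 to 7.07 in the others, ratio 0.877), Snrpb (8.21 against 7.98 to 8.01, ratio 0.851) and Prpf6 (6.21 against 6.38 to 6.40, ratio 0.873). Pkp4 cUTR CB replicate 4 was low for Hnrnpl (8.0 against 8.18 to 8.21, ratio 0.874). The same 2 libraries lay apart from their groups on the first principal component of all RNAs.

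HBB Ps replicate 1 was high for Hnrnpa0 (7.39 against 7.34 in the others, ratio 0.835) and low for Prpf40b (4.90 against 5.05 to 5.07, ratio 0.852). HBB Ps replicate 2 was high for Hnrnpa2b1 (7.52 against 7.21 to 7.25, ratio 0.875). Pkp4 cUTR Ps replicate 1 was low for Hnrnpr (3.98 against 4.27 to 4.33, ratio 0.831). Hnrnpa1 in Pkp4 cUTR CB replicate 2 (8.08 against 8.14, ratio 0.88) was low.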

How the results depend on the processing

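Under the alternatives, 418 counts stayed within 1.5 times the reported value and 44 did not. Some of the 418 had little room to move. The log2(Diff FC) counts were 0 under every setting, and fits without 1 library also counted comparisons that do not use that library. Reads scaled to sample totals gave 14 members higher and 21 lower in HBB (0 higher by 2-fold), 14 and 25 in Pkp4 cUTR (1 higher by 2-fold), 0 between the lines in CB and 0 in Ps, and 27 higher and 46 lower (HBB) and 27 and 47 (Pkp4 cUTR) in the pathway lists. Among all RNAs this scaling gave 15% higher and 43.5% lower in HBB, and 13.9% and 45.5% in Pkp4 cUTR. On that scale the sign turned in HBB for Prpf3 (-0.12), Prpf31 (-0.23), Snrpa (-0.13), Snrpb (-0.033), Srsf7 (-0.18), Srsf9 (-0.0188), Sf3a3 (-0.0121), Luc7l3 (-0.0311), Hnrnpab (-0.082) and Prpf19 (-0.00910). It turned in Pkp4 cUTR for Hnrnpa0 (-0.14), Lsm8 (-0.12), Prpf3 (-0.16), Prpf31 (-0.17), Prpf38b (-0.26), Snrpa (-0.14), Snrpb (-0.0381), Snrpc (-0.00367), Srsf7 (-0.19), Srsf9 (-0.16), U2af1 (-0.0196), U2af1l4 (-0.19), Hnrnpab (-0.25), Hnrnph3 (-0.13) and Prpf6 (-0.25). Median-of-ratios factors turned Prpf38b in Pkp4 cUTR to -0.00532, and quantile normalization turned it to -0.0808, U2af1l4 in HBB to 0.0517 and Prpf6 in HBB to 0.0137. The log2(CPM + 1) scale left 0 members lower by 2-fold in either line. Between the lines in CB, quantile normalization gave 3 calls, a fit of these groups alone 0, and leaving out replicate 4 of both CB groups 0, which gave 2 in Ps.

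Leaving out 1 library gave 2 to 4 members higher by 2-fold in HBB (2 without Ps replicate 2), 1 to 4 in Pkp4 cUTR (1 without CB replicate 3), and 0 to 1 lower in each line (0 without HBB Ps replicate 4 and Pkp4 cUTR Ps replicate 3). It gave 0 to 3 calls between the lines in CB and 0 to 2 in Ps, and 17 to 30 pathway RNAs lower in Pkp4 cUTR (17 without CB replicate 3). Values that changed sign ranged between -0.0461 and 0.0524 for Prpf31 and -0.0343 and 0.0427 for U2af1l4 in HBB, and in Pkp4 cUTR between -0.073 and 0.0813 for Prpf38b, -0.00111 and 0.195 for Srsf7, -0.0147 and 0.133 for U2af1l4, -0.0179 and 0.0443 for Hnrnpab and -0.024 and 0.0511 for Prpf6.

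Same-numbered Ps and CB libraries of a line share a number whose meaning the labels do not give (r 0.112, 0.389, 0.046 and 0.164 in HBB, and -0.033, 0.002, -0.362 and -0.25 in Pkp4 cUTR). With a replicate block within the line, counts were 29 higher and 13 lower in HBB, 27 and 14 in Pkp4 cUTR, and 0 for log2(Diff FC), and Prpf38b in Pkp4 cUTR was at -0.000385. With the block shared by the lines, Prpf38b in Pkp4 cUTR was at -0.00187 and U2af1l4 in HBB at 0.00117. The causes of these changes were not tested. The depth limits RNAs such as Srsf1 and Prpf39, which rest on few reads.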

Other observations

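Among the 125 other splicing RNAs, 1 differed between the lines far more than any of the 66 members. Eftud2, the GTPase of the U5 particle that works beside Prpf8, was at 8.36, 8.37, 8.56 and 8.48 log2 CPM in HBB CB and at 7.39, 7.45, 7.56 and 7.31 in Pkp4 cUTR CB. In Ps it was at 8.20, 8.10, 8.34 and 8.38 in HBB and at 7.31, 7.18, 7.24 and 7.36 in Pkp4 cUTR. The lines did not overlap in either fraction, and Pkp4 cUTR was lower by a log2 difference of -1.01 ± 0.08 in CB (limma adjusted p = 1.30e-07) and -0.98 ± 0.08 in Ps (2.48e-07). With 1 library left out the difference stayed between -1.06 and -0.97 in CB and between -1.03 and -0.94 in Ps. It was singled out after its values were seen.

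Of the same 125 RNAs, 3 were higher in Pkp4 cUTR in CB (Isy1 0.34, Gemin6 0.43 and Sfpq 0.24) and 4 in Ps (Isy1 0.29, Gemin6 0.54, Clk4 0.36 and Tial1 0.38), beside the 3.42% and 2.89% of all RNAs. Isy1 is a protein of the catalytic spliceosome, and Gemin6 belongs to the SMN complex. Leaving out single libraries ended all of these calls but that of Isy1 in CB, with 4 to 8 libraries for each call, and the lowest values were 0.22 for Isy1 in Ps, 0.32 and 0.47 for Gemin6 in CB and Ps, 0.21 for Sfpq, 0.30 for Clk4 and 0.30 for Tial1. Each line is 1 selected population, so a difference between constructs and one between populations cannot be told apart.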
